A study of Mus musculus with 4 samples.

Results

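Hepatocyte nuclei from an undamaged mouse liver differed widely in how many accessible-chromatin counts each of them carried, and the deepest nuclei were compared here with nuclei of middle depth. The total count of a nucleus is the sum over all peaks of the deposited matrix. Of the 4645 barcodes of the 0 h library, 979 held at least 50000 counts (the deep nuclei) and 1187 held 15000 to 35000 counts (the mid-depth nuclei), which makes 2166 nuclei compared. The other 530 barcodes between the classes and 1949 below them took no part in the comparison, and the series held 20217 barcodes in all. The nuclei were chosen by their measured total counts, so the depth values are a description. The comparison asked whether a nucleus's depth went with its place in the liver lobule or with another state of its chromatin.

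The library came from 1 hepatocyte preparation of an adult male C57BL/6J mouse on a normal diet, from undamaged liver (PHx 0 h, the time 0 control of a partial hepatectomy series). The labels give mice of 10 to 12 weeks. Hepatocytes were released by collagenase perfusion, nuclei were extracted, their open chromatin was tagged by transposase, and droplets added a barcode to each nucleus (single-nucleus ATAC-Seq, 10x Genomics). There was 1 library per time point, so nuclei of the 2 depth classes are cells of 1 preparation and not replicates. No difference between them was tested, and the intervals given below cover counting error only. The other libraries of the series came from regenerating liver at 48, 72 and 96 h after partial hepatectomy.

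Mouse hepatocytes are commonly polyploid, as single large nuclei or as 2 nuclei in a cell, and a nucleus with more genome copies offers more DNA to the transposase. Droplets that catch more than 1 nucleus also gather more counts. Ploidy and doublets could not be told apart here, and neither was tested. Hepatocytes also differ by position along the blood flow: periportal cells carry out urea synthesis, amino acid breakdown and glucose production, while pericentral cells, under WNT signalling from the central vein, make glutamine and express most drug-metabolising cytochromes P450.

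The promoters below are shown because their genes had the largest ratios between deep and mid-depth nuclei (Cyp2c29 and Oat high, Hsd17b13 and Hsd17b6 low) or are landmarks of the 2 ends of the lobule (Glul pericentral, Cyp2f2 periportal). Each runs from 250 bases before to 50 after the RefSeq gene start on build GRCm38.p6, 5′ to 3′ on the gene's strand. Capitals mark matches on either strand to any of 6 motifs searched, which were TATAAA (the TATA box), CCAAT (the box of that name), GGGCGG (the GC box), AGGTCA (letters of nuclear receptor sites), GTTAAT (letters of HNF1 sites) and CTTTGA (letters of the TCF factors of WNT signalling). In Oat, 2 GGGCGG matches adjoin in 1 run of capitals.

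Cyp2c29, chr19:39286835-39287134, plus strand: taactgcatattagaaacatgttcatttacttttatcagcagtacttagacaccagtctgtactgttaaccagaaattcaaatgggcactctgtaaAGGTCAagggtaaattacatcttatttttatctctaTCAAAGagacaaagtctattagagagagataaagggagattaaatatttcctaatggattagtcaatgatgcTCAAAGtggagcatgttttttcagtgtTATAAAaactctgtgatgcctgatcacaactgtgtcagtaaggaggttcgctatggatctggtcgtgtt
Oat, chr7:132576349-132576648, minus strand: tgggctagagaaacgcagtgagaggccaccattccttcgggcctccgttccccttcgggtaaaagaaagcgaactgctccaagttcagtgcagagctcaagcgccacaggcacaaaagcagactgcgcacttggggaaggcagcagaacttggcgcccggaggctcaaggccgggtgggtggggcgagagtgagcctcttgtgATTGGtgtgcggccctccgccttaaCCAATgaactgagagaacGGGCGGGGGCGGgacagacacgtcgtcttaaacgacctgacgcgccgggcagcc
Hsd17b13, chr5:103977339-103977638, minus strand: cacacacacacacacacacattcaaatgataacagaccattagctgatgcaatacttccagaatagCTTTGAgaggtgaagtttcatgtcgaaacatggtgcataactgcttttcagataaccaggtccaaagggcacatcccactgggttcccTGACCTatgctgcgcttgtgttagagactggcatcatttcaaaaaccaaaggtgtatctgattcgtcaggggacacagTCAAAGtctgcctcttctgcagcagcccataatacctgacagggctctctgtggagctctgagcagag
Hsd17b6, chr10:128007562-128007861, minus strand: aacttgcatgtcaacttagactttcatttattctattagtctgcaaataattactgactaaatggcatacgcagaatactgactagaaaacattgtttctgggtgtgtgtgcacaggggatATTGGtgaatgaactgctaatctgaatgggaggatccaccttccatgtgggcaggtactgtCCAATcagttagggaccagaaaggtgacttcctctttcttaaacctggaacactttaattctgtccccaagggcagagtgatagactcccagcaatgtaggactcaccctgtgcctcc
Glul, chr1:153899679-153899978, plus strand: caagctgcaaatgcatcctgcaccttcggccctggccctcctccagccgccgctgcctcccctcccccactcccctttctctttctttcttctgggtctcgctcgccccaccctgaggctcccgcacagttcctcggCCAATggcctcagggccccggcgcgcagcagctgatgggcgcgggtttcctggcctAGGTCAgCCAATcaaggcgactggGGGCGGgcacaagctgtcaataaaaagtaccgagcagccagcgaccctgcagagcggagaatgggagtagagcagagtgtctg
Cyp2f2, chr7:27119705-27120004, plus strand: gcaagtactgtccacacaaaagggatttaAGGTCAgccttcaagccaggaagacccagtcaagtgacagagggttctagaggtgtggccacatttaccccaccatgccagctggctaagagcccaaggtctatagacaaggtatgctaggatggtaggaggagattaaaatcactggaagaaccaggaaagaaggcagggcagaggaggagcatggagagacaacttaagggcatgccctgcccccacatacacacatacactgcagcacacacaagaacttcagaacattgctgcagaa

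AGGTCA was present in 4 of the 6 promoters and in 16.0% of all 27025 promoters of the table. CTTTGA was present in Cyp2c29 and Hsd17b13, and in 16.2% of all promoters. CCAAT was found in 3 of the 6 (37.9% of all), GGGCGG in 2 (35.9%), TATAAA in Cyp2c29 alone (14.2%) and GTTAAT in none (7.20%). These matches describe letters and no binding. Among genes tested below, the median log2 ratio of deep to mid-depth nuclei was 0.01 for the 461 genes with CTTTGA and 0.01 for the 3771 without it, so genes with these letters did not stand apart as a group.

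The library held 136949314 counts over 119839 peaks. Deep nuclei made up 56.3% of all its counts and mid-depth nuclei 21.1%. Median depth was 70031 counts in deep nuclei (50035 to 306343) and 24063 in mid-depth nuclei (15024 to 34956). To compare them at a like depth, every nucleus was thinned to 10000 counts drawn at random, and the thinned counts were summed per class, giving 9790000 counts for deep and 11870000 for mid-depth nuclei. A gene's level is given in CPM, its counts scaled to a like total in both classes, in peaks that overlap its body or the 2000 bp upstream.

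**Figure D1:**
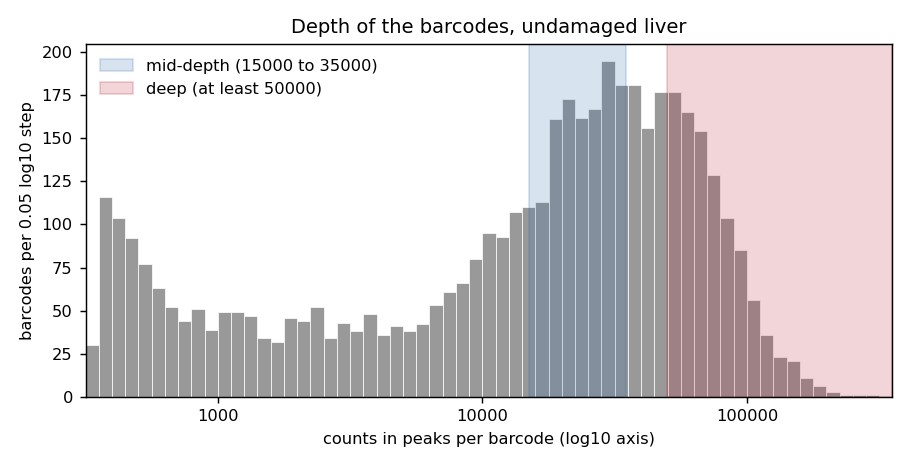
Number of barcodes (y axis) by counts per barcode (x axis, log10 scale) in the undamaged liver library, with the mid-depth class shaded blue and the deep class red. The barcodes form 1 broad peak from below 15000 to above 50000 counts, which both classes cut, and a second rise below 1000 counts that neither class holds.

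Cell barcodes were shared with other libraries far more often in the deep class. Of the 979 deep barcodes, 741 (75.7%, exact 95% interval 72.9% to 78.3%) also occurred in at least 1 other library of the series, against 33 of 1187 mid-depth barcodes (2.78%, 1.92% to 3.88%). Above the mid-depth class the share grew with depth. It was 13.6% of the nuclei between the classes, 51.1% at 50000 to 65000 counts and 97.9% at 80000 counts and over. Below the mid-depth class it was also higher, with 220 of 1949 barcodes shared (11.3%), and these 220 had a median of 447 counts. The 4 libraries were pooled for sequencing, and the part that sharing plays in the results was not tested. Each main result is therefore also given for the 238 deep and 1154 mid-depth nuclei whose barcodes occurred in no other library.

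Deep nuclei were shifted towards the pericentral end of the lobule. The pericentral share is the counts in the windows of 20 pericentral genes over the counts in these and in the windows of 20 periportal genes. It was 36.2% in the summed deep nuclei (95% interval 35.8% to 36.7%) and 30.4% in the summed mid-depth nuclei (29.9% to 30.8%), a difference of 5.89 percentage points. Scaling each nucleus to 10000 counts with no random draw gave 6.08 points. Without the shared barcodes, the difference was 5.96 points. Both lists differed: in the draw used for single nuclei, a mid-depth nucleus carried on average 24.0 pericentral and 54.7 periportal counts of its 10000, and a deep nucleus 27.5 and 47.8.

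Nuclei of both classes nevertheless spanned the whole range of the share. Per nucleus, the median was 34.1% in deep nuclei with a middle 90% of 15.5% to 69.2%, and 26.5% in mid-depth nuclei with a middle 90% of 11.9% to 68.5%. The SD over nuclei was 16.1 points in deep and 17.0 in mid-depth nuclei, against 7.96 and 7.58 points for counting error alone, so neither class was of 1 zone. Without shared barcodes the medians were 34.3% and 26.5%. Pericentral and periportal counts were opposed within each class, with Pearson's r of -0.64 over 979 deep nuclei and -0.53 over 1187 mid-depth nuclei, which are values over nuclei of 1 library that share its peaks and the fixed total of 10000.

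The share was flat within the mid-depth class and higher in each deeper bin. The median pericentral share was 24.0% in the 348 nuclei with 10000 to 15000 counts, 26.3% at 15000 to 25000, 26.7% at 25000 to 35000 and 29.0% at 35000 to 50000. It went on to 31.3% at 50000 to 65000, 34.2% at 65000 to 80000 and 37.1% in the 333 nuclei with 80000 counts and over. Over all 3044 nuclei with at least 10000 counts, Spearman's rho between depth and the share was 0.21. It was 0.02 among mid-depth nuclei and 0.13 among deep ones, so within the mid-depth class depth and zone hardly went together. Just inside the deep limit (152 nuclei with 50000 to 55000 counts) the summed share was 34.3%, and just outside it (156 nuclei with 45000 to 50000) 33.4%. Just inside the upper mid-depth limit (250 nuclei with 30000 to 35000 counts) it was 31.3%, and just outside it (210 nuclei with 35000 to 40000) 33.3%. At this upper mid-depth limit the counting intervals, 30.4% to 32.2% inside and 32.3% to 34.3% outside, did not meet. Those at the deep limit overlapped. Counting intervals leave out the spread between nuclei, whose SD was 16.7 points inside and 17.5 points outside the mid-depth limit. They therefore do not show a step there.

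**Figure D2:**
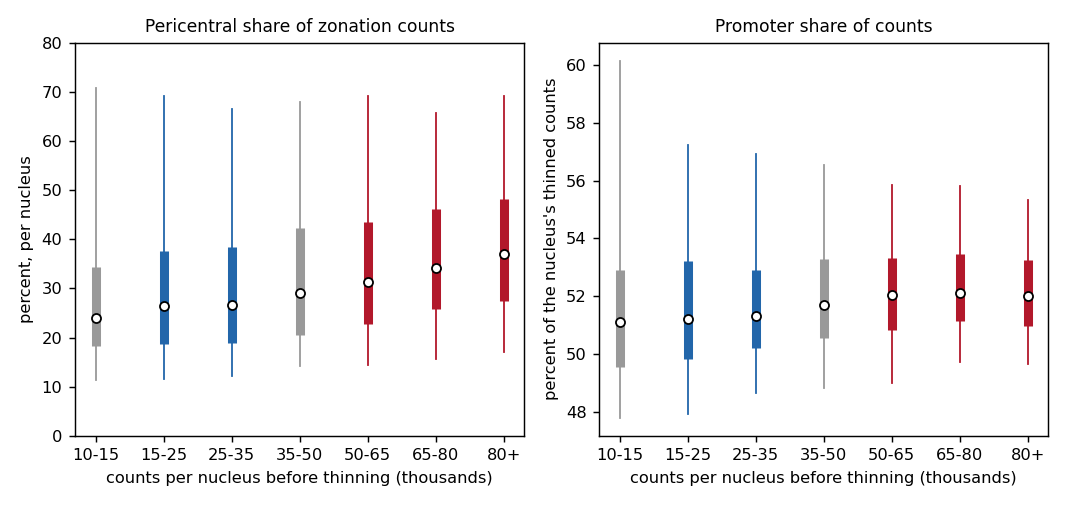
Pericentral share of zonation counts (left, percent) and promoter share of all counts (right, percent) per nucleus thinned to 10000 counts, by depth before thinning (x axis, counts in units of 1000). Circles are medians, thick bars the middle 50% and thin bars the middle 90% of nuclei (blue, mid-depth; red, deep; grey, outside both classes), and the median pericentral share climbs from 24.0% to 37.1% while the promoter share moves by about 1 point.

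Read the other way, from zone to depth, the most pericentral nuclei did not have the highest median depth. The 3044 nuclei were ranked by pericentral share and divided into 10 equal parts (deciles). Median depth was 26772 counts in the most periportal decile, 46774 in the eighth decile and 36887 in the most pericentral decile. The deep class made up 17.0% of the most periportal decile (95% interval 13.0% to 21.7%), 47.0% of the eighth (41.3% to 52.8%) and 37.0% of the last (31.6% to 42.7%). The last decile therefore held fewer deep nuclei than the eighth, with intervals that overlap slightly.

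**Figure D3:**
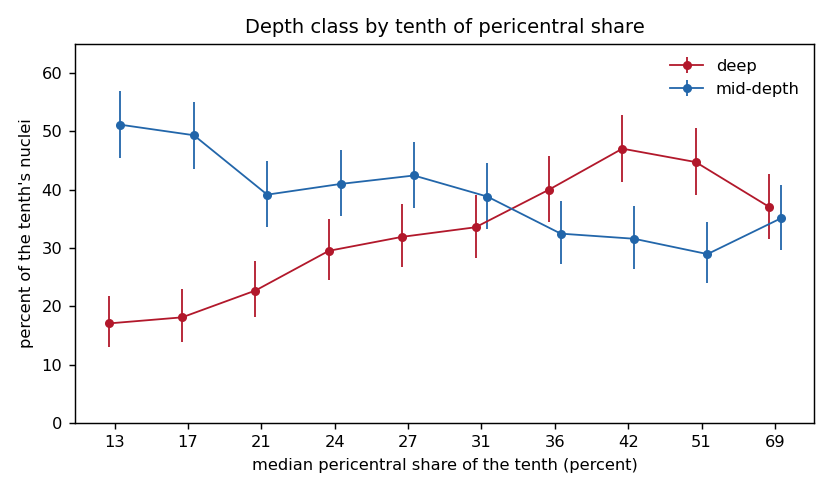
Percent of nuclei that were deep (red) or mid-depth (blue) on the y axis, in each decile of nuclei ranked by pericentral share, labelled on the x axis by the median share of the decile. Bars are exact 95% binomial intervals, and the deep share climbs from 17.0% to 47.0% at the eighth decile and is 37.0% in the last.

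Gene by gene, most windows hardly differed. Of 5446 protein-coding genes with at least 50 CPM in the mean of both classes, 12 were higher in deep nuclei by a log2 ratio of at least 0.32 (0.220% of genes tested) and 15 were lower by as much (0.275%). At 1.5-fold 1 gene was higher (0.0184%) and 0 were lower. The median log2 ratio over all genes tested was 0.01 with an SD of 0.10 over genes. The ratios are on the log2(CPM + 5) scale, which understates the change of low genes. With each nucleus scaled and nothing drawn, 9 genes were higher and 9 lower (0.165% each), and the 20 genes named by rank below kept their sign. Without shared barcodes, where only 238 deep nuclei are summed, 77 genes were higher (1.42%) and 50 lower (0.920%).

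The highest gene was Cyp2c29, a cytochrome P450 of drug and fatty acid metabolism (chr19:39269405-39330713). It had 85.2 CPM in deep nuclei (95% interval 77.2 to 93.8) and 48.7 CPM in mid-depth nuclei (43.2 to 54.6), a log2 ratio of 0.75. The 2 intervals lie far apart. Only 9.69% of its mid-depth counts lay in peaks near an annotated start, and the peaks over the rest of its window had a log2 ratio of 0.72. The peak on its RefSeq promoter printed above was weak in both classes, with 6.84 CPM (4.73 to 9.59) in deep and 2.95 CPM (1.73 to 4.69) in mid-depth nuclei. Across the depth bins the whole window had 48.0 CPM at 10000 to 15000 counts and 100.6 CPM at 80000 counts and over.

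Other pericentral genes of ammonia and drug handling followed. Oat, ornithine aminotransferase, which feeds ornithine nitrogen towards glutamine (chr7:132557478-132576398), had 171.8 CPM in deep (160.4 to 183.8) and 116.6 CPM in mid-depth nuclei (108.1 to 125.6), a log2 ratio of 0.54. Its 2 main peaks differed alike: the downstream peak at chr7:132551023-132566168, which overlaps Oat exons, gave a log2 ratio of 0.61, the highest of all peaks tested, and the peak on the promoter gave 0.41. Cyp2e1, the ethanol- and acetaminophen-oxidising P450, had 360.9 CPM in deep (344.2 to 378.1) and 254.9 CPM in mid-depth nuclei (242.2 to 268.1), a log2 ratio of 0.49. The gene Syce1 beside it shows the same numbers because the windows share 1 peak, so the counts cannot be divided between them.

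Cyp3a11, a major drug-metabolising P450, had 206.1 CPM against 154.3 CPM (log2 ratio 0.41), and Cyp1a2, which oxidises caffeine and aromatic amines, 82.8 CPM against 61.8 CPM (0.40). Cyp4a10, a fatty acid hydroxylase under PPARα, had 59.0 CPM against 42.2 CPM (0.44). For each of these P450 genes the intervals of the classes did not meet. Aldh3a2, a fatty aldehyde dehydrogenase, had 171.1 CPM against 134.2 CPM (0.34), and Avpr1a, the hepatic vasopressin receptor, 74.7 CPM against 57.9 CPM (0.34). Adck5 (0.44) and Arel1 (0.34) completed the 10 highest, with log2 ratios of 0.29 and 0.26 when nothing was drawn. Phospho1, named after its values were seen because it is the only other gene past the limit, had a log2 ratio of 0.32.

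The lowest gene was Hsd17b13, a lipid droplet protein of periportal hepatocytes (chr5:103955440-103977410), with 173.0 CPM in deep (161.6 to 185.1) and 253.9 CPM in mid-depth nuclei (241.3 to 267.1), a log2 ratio of -0.54. Hsd17b6, a retinol and steroid dehydrogenase (chr10:127990936-128007611), had 95.9 CPM (87.4 to 105.0) against 135.6 CPM (126.4 to 145.3), a log2 ratio of -0.48. Each of these windows is a single peak of over 20 kb that covers the gene and its promoter, so promoter and body cannot be told apart there. Hal, histidine ammonia-lyase, the first enzyme of histidine breakdown, had 399.0 CPM against 530.0 CPM (-0.41). It shares its peak with Amdhd1, a later enzyme of the same pathway. Hsd17b13 was lower in each depth bin than in the one before, from 288.2 CPM at 10000 to 15000 counts to 157.4 CPM at 80000 counts and over. Hal had 502.0 CPM at 10000 to 15000 counts, 531.0 CPM at 25000 to 35000 and 342.3 CPM at 80000 and over.

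Sds, serine dehydratase, had 42.7 CPM against 58.0 CPM (log2 ratio -0.40), whereas its relative Sdsl was level with 51.2 CPM against 53.2 CPM (-0.05). Etnppl, ethanolamine-phosphate phospho-lyase, had 43.5 CPM against 58.7 CPM (-0.39). Ctsc, a lysosomal protease (68.5 CPM against 89.1 CPM, -0.36), and Fgfr1, an FGF receptor (46.9 CPM against 65.2 CPM, -0.44), followed. Cxadr, a tight junction protein, had 381.4 CPM against 499.2 CPM (-0.38) and shares most of its counts with Btg3. Chrm3, a muscarinic receptor, had a log2 ratio of -0.35. Mug2, a protease inhibitor of plasma, had -0.46. With nothing drawn, Mug2 (-0.27), Etnppl (-0.29) and Ctsc (-0.29) were short of the limit. With another random draw Chrm3 (-0.24), Mug2 (-0.28), Etnppl (-0.23) and Ctsc (-0.20) were short of it among the 10 lowest, and Adck5 (0.31), Arel1 (0.21), Avpr1a (0.29) and Aldh3a2 (0.30) among the 10 highest. Alk (-0.34), Ctdspl (-0.33) and Vwf (-0.32), named after their values were seen, were the remaining genes past the limit.

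As a list, the pericentral genes stood on the side of the deep nuclei. Of its 20 genes 14 had enough counts, with a median log2 ratio of 0.16 against 0.01 over all genes tested. In 12 of them the ratio was above 0 (53.8% of all genes), and 3 passed the limit of 0.32 (Oat, Cyp2e1 and Cyp1a2), as did 0.220% of all genes. The summed level of all its peaks was 2749 CPM in deep (2703 to 2796) and 2394 CPM in mid-depth nuclei (2354 to 2433). Without shared barcodes the median was 0.13. Lists were chosen with earlier results of these data known, so these counts describe the list and are no test of it.

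The pericentral genes did not differ alike. Glul, glutamine synthetase, had 125.7 CPM (116.0 to 136.1) in deep and 124.2 CPM (115.4 to 133.5) in mid-depth nuclei, a log2 ratio of 0.02. Slc1a2, a glutamate carrier, had 118.2 CPM against 113.1 CPM (0.06), and Rhbg, an ammonium carrier, 32.8 CPM against 30.9 CPM (0.07), below the 50 CPM minimum. Gulo, the last enzyme of vitamin C synthesis, had 362.6 CPM against 370.5 CPM (-0.03). All 4 pairs of intervals overlap, whereas those of Oat and Cyp2e1 stood well apart.

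Other genes of the pericentral list had ratios above 0. Axin2, a feedback inhibitor of WNT signalling, had 51.7 CPM against 38.1 CPM (log2 ratio 0.40) and fell below the 50 CPM minimum. Tbx3, a transcription factor, had 63.1 CPM against 53.2 CPM (0.23), Rnf43, a ligase that removes the WNT receptor, 190.1 CPM against 162.0 CPM (0.22), and its relative Znrf3 136.4 CPM against 124.1 CPM (0.13). Lgr5, the R-spondin receptor, had 31.2 CPM against 26.5 CPM (0.20). The intervals of Znrf3 and Lgr5 held 0, and that of Tbx3 began just above it. The transporter Slco1b2, which takes up organic anions and bile acids, had 408.0 CPM against 345.5 CPM (0.24).

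The periportal list went the other way. Of its 20 genes 19 had enough counts, with a median log2 ratio of -0.20, and -0.18 without shared barcodes. In 18 of them the ratio was below 0 (46.2% of all genes tested), and 6 were lower by at least 0.32 (Hsd17b13, Hsd17b6, Hal, Sds, Etnppl and Ctsc), as were 0.275% of all genes. Apof, an apolipoprotein, was the exception at 0.03. The summed level was 4835 CPM in deep (4774 to 4897) and 5490 CPM in mid-depth nuclei (5430 to 5549). Cyp2f2, a P450 used as a periportal landmark, had 145.9 CPM (135.4 to 157.0) against 177.8 CPM (167.3 to 188.9), a log2 ratio of -0.28.

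Within the periportal list, the windows of the urea cycle genes Cps1, Ass1 and Asl differed little. Cps1, the entry enzyme, had 871.1 CPM against 974.6 CPM (log2 ratio -0.16). Ass1 (479.6 CPM against 488.7 CPM, -0.03) and Asl (333.2 CPM against 336.5 CPM, -0.01), the middle enzymes of the cycle, were level. Of the glucose-making genes, Pck1 had 718.8 CPM against 781.3 CPM (-0.12) and G6pc 414.3 CPM against 423.6 CPM (-0.03). Gls2, the liver glutaminase that releases ammonia, had 198.0 CPM against 228.7 CPM (-0.20) and Tat, tyrosine aminotransferase, 236.6 CPM against 271.8 CPM (-0.20). Hal, Sds, Gls2 and Tat, which break down amino acids, had lower ratios than Ass1, Asl, Pck1 and G6pc of the same zone. The list did not divide cleanly by function. Sdsl (-0.05) and Uroc1 (106.1 CPM against 110.6 CPM, -0.06) were level, and Cps1 lay between.

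**Figure D4:**
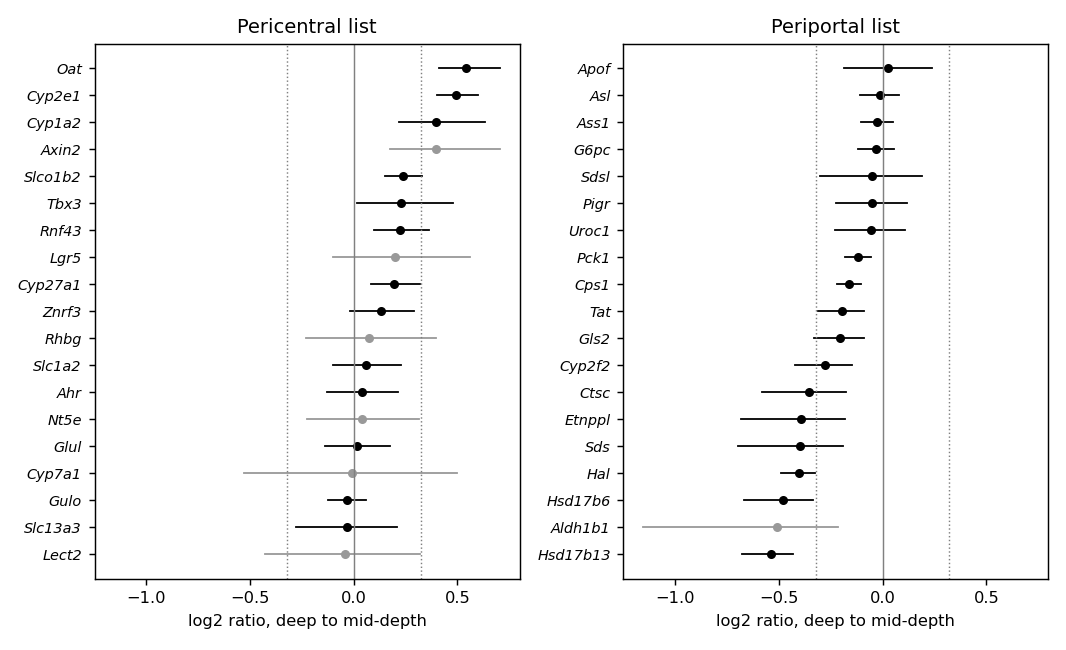
Log2 ratio of deep to mid-depth nuclei (x axis) for genes of the pericentral (left) and periportal (right) lists, with 95% counting intervals (computed without the added 5 CPM). Grey genes had under 50 CPM, dotted lines mark 0.32 either way, and of the black genes Oat, Cyp2e1 and Cyp1a2 lie beyond the right line while 6 periportal genes lie beyond the left one.

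Midzonal genes, most open in the cells between both zones, had a median log2 ratio of -0.0025 over 3 genes tested. Cyp8b1, a bile acid hydroxylase (0.02), and Mup3, a major urinary protein (-0.0025), were level. Igfbp2, a growth factor binding protein, had -0.13 (-0.22 to -0.05), below 0 by more than counting error. The bile acid list as a whole had a median of -0.0039 over 11 genes, between Abcb11, the bile salt export pump (-0.18), and Cyp27a1, a sterol hydroxylase also held in the pericentral list (0.20).

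The 15 hepatocyte markers had a median log2 ratio of -0.03, with Alb (albumin, 513.9 CPM against 634.2 CPM, -0.30) lowest and Cyp3a11 highest. Hpx (hemopexin, -0.21), Ttr (transthyretin, -0.18) and Apob (the main protein of VLDL, -0.11) were, like Alb, below 0 by more than counting error, while the intervals of Fgb (-0.03) and Trf (-0.01) held 0. In 9 of the 15 the ratio was below 0 and in 6 above, among them Apoh (134.9 CPM against 121.1 CPM, 0.15), whose interval began just above 0. The summed list was 5042 CPM in deep (4979 to 5105) and 5261 CPM in mid-depth nuclei (5203 to 5320), a log2 ratio of -0.06, and -0.07 without shared barcodes. The 15 hepatocyte transcription factors had a median of 0.01 and a range from -0.14 (Cebpa) to 0.16 (Onecut1). Hnf4a, the central regulator of hepatocyte genes, had 465.9 CPM against 482.8 CPM (-0.05). None of the 15 passed the limit in either direction. Over all genes tested only 0.220% were higher and 0.275% lower, so this count does not set the 15 apart.

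Markers of other liver cells were low. The endothelial list summed to 418 CPM in deep (400 to 437) and 413 CPM in mid-depth nuclei (397 to 430). Kupffer and immune genes summed to 79.6 CPM (71.9 to 87.9) against 87.5 CPM (80.2 to 95.4), stellate and mesenchymal genes to 77.8 CPM (70.2 to 86.1) against 82.2 CPM (75.1 to 89.9), and cholangiocyte genes to 155 CPM (145 to 167) against 156 CPM (146 to 166). Of the 38 genes of these lists, 15 had no counts in either class, among them the defining markers Clec4f, Adgre1, Cd5l, Dcn, Krt19 and Cdh5. Genes with no counts in either class can show no difference. The summed intervals of the classes overlap for all 4 lists. Csf1r, the receptor of macrophage growth factor, was the 1 gene of them whose ratio interval left out 0, with 17.2 CPM in deep and 23.4 CPM in mid-depth nuclei (log2 ratio -0.36, -0.86 to -0.05).

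Few genes of polyploidisation and cell division had enough counts singly, and their sum was slightly higher in deep nuclei, by more than counting error only with the shared barcodes. Of 20 ploidy and cytokinesis genes only E2f8 (169.4 CPM against 154.7 CPM, log2 ratio 0.13), a repressor needed for liver polyploidy, and Ccnd1 (80.3 CPM against 80.7 CPM, -0.01), cyclin D1, had enough counts. The summed list was 836 CPM in deep (811 to 862) and 787 CPM in mid-depth nuclei (764 to 810), a log2 ratio of 0.09 (0.03 to 0.15), and 0.09 (-0.01 to 0.19) without shared barcodes. Of 20 DNA replication genes 3 had enough counts, with a median of 0.06, and 2 of 20 ribosomal protein genes, with a median of 0.10. Ribosomal protein genes summed to 693 CPM in deep (670 to 716) and 631 CPM in mid-depth nuclei (611 to 651), a log2 ratio of 0.14 (0.07 to 0.20), and 0.11 (-0.0010 to 0.22) without shared barcodes. Replication genes summed to 720 CPM and 694 CPM with intervals that overlap. Trp53, the p53 gene, had 50.7 CPM against 40.2 CPM (0.30), just under the minimum. E2f7 of the ploidy list, far under it, went the other way with 13.6 CPM against 17.4 CPM (-0.27), and its interval held 0. None of the few tested genes of these 3 lists passed the limit, which 0.220% of all genes tested passed upwards and 0.275% downwards. With so few genes this count does not set the lists apart.

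Of the metabolic and stress lists, cholesterol synthesis differed by more than counting error. Fatty acid oxidation genes had a median log2 ratio of 0.07 over 8 genes, with Cyp4a10 (0.44), Ehhadh (a peroxisomal enzyme, 0.24) and Pdk4 (which blocks glucose oxidation, 0.21) above it. Cholesterol synthesis genes had a median of -0.09 over 11 genes, 8 of them below 0, with Cyp51 (-0.22), Insig1 (439.6 CPM against 497.5 CPM, -0.18) and Hmgcs1 (-0.16) among them. Summed, the cholesterol list was 2077 CPM in deep (2036 to 2117) and 2229 CPM in mid-depth nuclei (2191 to 2267), a log2 ratio of -0.10 (-0.14 to -0.06), and -0.09 (-0.16 to -0.03) without shared barcodes. Fatty acid synthesis genes had a median of 0.00 over 11 genes, from Acly (-0.18) to Scd1 (0.22). Immediate early and stress genes, which open during cell isolation, had a median of -0.01 over 14 genes, with Fos at 0.00, Egr1 at -0.06 and Atf3 at -0.01. The 7 acute phase genes had a median of 0.04.

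**Figure D5:**
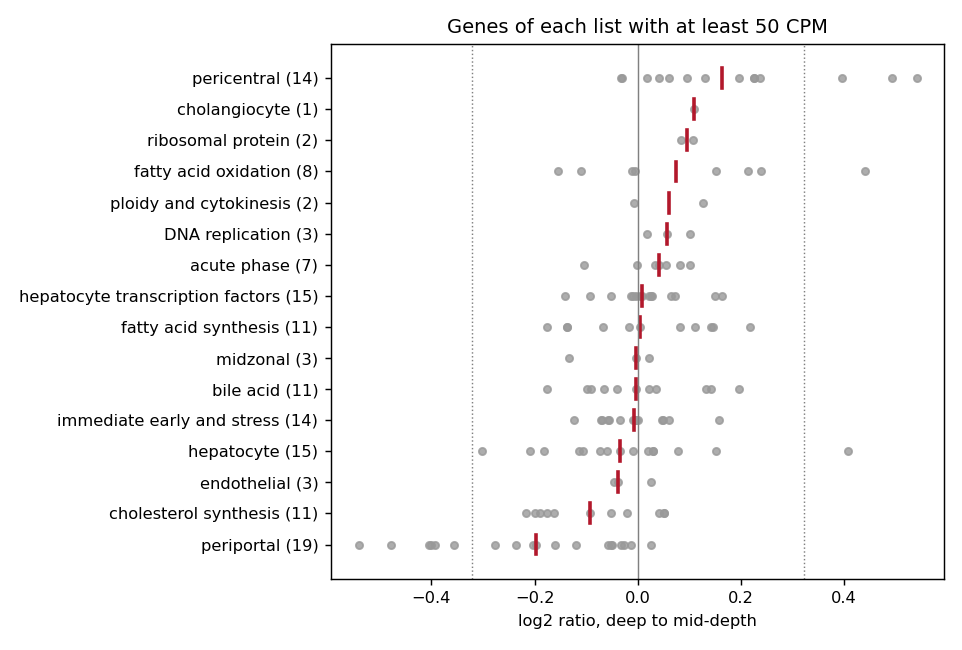
Log2 ratio of deep to mid-depth nuclei (x axis) for the genes of each list with at least 50 CPM (grey points, number in brackets), with the list's median in red and dotted lines at 0.32 either way. The pericentral and periportal lists lie at the ends with medians of 0.16 and -0.20, and the others lie between them.

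The promoter share of counts was slightly higher in deep nuclei. Peaks within 1000 bp of an annotated start took 52.2% of the summed deep counts and 51.8% of the summed mid-depth counts, a difference of 0.44 percentage points that exceeds the counting error (52.17% to 52.26% against 51.74% to 51.82%). Per nucleus the mean was 52.2% ± 1.91 (SD, n = 979 nuclei) in deep and 51.8% ± 2.69 (SD, n = 1187 nuclei) in mid-depth nuclei, so the spread between nuclei was several times the difference. The median moved from 51.1% at 10000 to 15000 counts to 52.0% at 80000 counts and over. Mid-depth nuclei had the longer upper tail, with a 95th percentile of 57.0% against 55.7%. Without shared barcodes the difference was 0.51 points.

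Promoter share and zone went together, with Spearman's rho of 0.23 over the 3044 nuclei. With nuclei divided into 3 equal parts by pericentral share, the mean promoter share was 51.8% in deep and 51.2% in mid-depth nuclei of the most periportal part, and 52.1% and 51.7% in the middle part. In the most pericentral part the means were 52.5% and 52.6%, while the medians, 52.3% and 52.0%, kept the order of the other parts. Each of these differences is well below the SD over nuclei of 1.85 to 2.97 points.

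Peaks with few counts were relatively poorer in deep nuclei. Ranked by their level, the lowest decile of peaks had a summed log2 ratio of -0.20, the fifth decile -0.06 and the highest decile 0.02. Promoter peaks made up 5.71% of the lowest decile and 67.2% of the highest. At 10000 counts a deep nucleus nevertheless covered a median of 7410 different peaks and a mid-depth nucleus 6402. Counts here are fragment ends, and 88.6% of the non-zero matrix entries are even, so the draw splits the 2 ends of a fragment more often in a deep nucleus. Drawn as 5000 fragments, the medians were 4346 and 4298 peaks, and most of the gap was gone.

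Of single peaks with at least 20 CPM, 134 of 12056 were higher in deep nuclei by the same limit (1.11%) and 63 were lower (0.523%). In mid-depth nuclei the higher peaks had a median of 21.7 CPM, the lower 29.3 CPM and all tested peaks 31.6 CPM. Counting error is largest in weak peaks, and how many passed the limit through it was not tested. Peaks near an annotated start made up 58.2% of the higher, 46.0% of the lower and 67.1% of all tested peaks. After the downstream Oat peak, the highest were an intron peak of Pex14, a peroxisome assembly gene (chr4:149081087-149083619, 28.6 CPM against 17.4 CPM, log2 ratio 0.59), and the promoter peak of Trmo (chr4:46388860-46390934, 26.5 CPM against 16.3 CPM, 0.56). An intergenic peak 24186 bp from the start of Cyp2b19 (chr7:26781328-26784154, 0.52) and the Cyp1a2 promoter peak (chr9:57674294-57684687, 62.2 CPM against 42.0 CPM, 0.52) followed. The lowest were the Hsd17b13 and Hsd17b6 peaks, an exon-overlapping peak of Nedd4l (17.4 CPM against 27.0 CPM, -0.51), a peak in Serpina1b, an antitrypsin gene, that also overlaps an exon of Gm8893 (chr12:103814431-103821696, 37.1 CPM against 54.2 CPM, -0.49), and one in Sybu (chr15:44746256-44749278, 19.1 CPM against 28.1 CPM, -0.46).

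Clustering without the sex chromosomes placed deep and mid-depth nuclei in the same groups at different shares. The 3044 nuclei with at least 10000 counts fell into 4 clusters. The largest, of 1730 nuclei and led by Hal, Hsd17b13, Hsd17b6, Sds and Cyp2f2, held 42.0% of deep nuclei (38.9% to 45.1%) and 64.95% of mid-depth nuclei (62.2% to 67.7%). A cluster of 778 nuclei led by Oat, Cyp2c29, Cyp2e1, Pdk4 and Glul held 39.3% of deep (36.3% to 42.5%) and 18.8% of mid-depth nuclei (16.6% to 21.1%). A cluster of 482 nuclei led by Sdsl, Ppp2r3d and Mms19, with a higher median promoter share of 53.8%, held 17.98% and 14.8%. The leading genes defined the clusters and are not results.

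The last cluster, of 54 nuclei, had low hepatocyte markers (median log2 ratio -1.58 to the other nuclei) and was led by Itga9, Hlx and Cmtm3. It was given no cell type name. It held 7 deep and 17 mid-depth nuclei, out of 979 and 1187. In equal numbers of 979 per class, 58.1% of the 30 nearest neighbours of a nucleus were of its own class, where full mixing gives 50%. Drawn as fragments this was 54.1%.

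The same contrast was drawn in the libraries of the regenerating liver, at the same multiples of the median count of barcodes with at least 1000 counts. These libraries were shallower. At 48 h deep meant at least 22359 counts (938 nuclei against 1223), at 72 h at least 9308 (709 against 1749) and at 96 h at least 7078 (618 against 1311), and nuclei were thinned to 4471, 1861 and 1415 counts. Of the deep nuclei 14.8%, 1.83% and 6.80% had a barcode also found in the 0 h library.

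The pericentral share was higher in the deeper nuclei of every library. It was 43.1% (42.3% to 43.8%) against 36.4% (35.8% to 37.1%) at 48 h, 42.6% (41.1% to 44.1%) against 34.8% (33.8% to 35.7%) at 72 h and 27.8% (26.3% to 29.5%) against 24.7% (23.7% to 25.8%) at 96 h. The differences were 6.64, 7.78 and 3.11 points, and 6.12, 7.88 and 3.42 points without barcodes shared with 0 h. Pericentral genes had median log2 ratios of 0.24, 0.27 and 0.20. Periportal genes had -0.10, -0.05 and 0.00. Among single genes, Cyp2c29 had log2 ratios of 0.58, 1.04 and 0.65, Cyp2e1 0.69, 1.36 and 0.78, and Oat 0.37, 0.81 and 0.48. Glul, level at 0 h, had 0.31, 0.22 and 0.23.

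Of the 10 highest genes at 0 h, those with at least 10 CPM in the other library were above 0 in 9 of 10 cases at 48 h (54.8% of all genes with at least 50 CPM there), 10 of 10 at 72 h (51.5%) and 6 of 7 at 96 h (49.8%). Of the 10 lowest, 10 of 10 were below 0 at 48 h (45.2% of all genes), 9 of 10 at 72 h (48.5%) and 8 of 9 at 96 h (50.2%). Ctsc was lower in the deeper nuclei of each library (-0.70, -0.74 and -0.35), as were Fgfr1 (-0.35, -0.68 and -0.40), Hal (-0.35, -0.23 and -0.35) and Sds (-0.38, -0.27 and -0.99). Mug2 had -0.07 at 48 h and 0.46 at 72 h. At 96 h it had 11.4 CPM in deep and 6.47 CPM in mid-depth nuclei (0.52). That is below 10 CPM in the mean of both classes, so Mug2 is not among the 9 genes counted at 96 h. Across all genes tested in both libraries the log2 ratios correlated with those of 0 h by Pearson's r of 0.39 at 48 h (4621 genes), 0.22 at 72 h (4270 genes) and 0.14 at 96 h (4334 genes), where genes are not independent replicates and the shallower libraries carry more counting error.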

How the data were processed

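Nuclei of hepatocytes from 4 time points after partial hepatectomy were profiled by single-cell ATAC-Seq, 1 library each, and the 0 h library was analysed by depth. The authors aligned reads to mm10, removed duplicates, called peaks per library and counted with Cell Ranger ATAC (version 1.1.0 per the file headers). The deposited matrices hold raw counts of fragment ends per peak and barcode. Peaks were joined to protein-coding genes of GENCODE vM21. Members and gene lists were chosen with earlier results of these data known. Nuclei were thinned with NumPy 2.4.6 (class sums and single nuclei in separate draws), and CPM, ratios (pseudocount 5 CPM, genes with at least 50 CPM) and exact 95% Poisson and binomial intervals (SciPy 1.17.1) were computed on 1 of 2 ends per fragment, i.e. on counts divided by 2. Intervals cover counting error only. No test was run, since 1 library per group allows none. Named genes are list genes and the 10 highest and 10 lowest ratios, and named peaks the 5 highest and 5 lowest. Clusters came from latent semantic indexing (30 components) and Leiden clustering (leidenalg 0.10.2, resolution 0.5). No doublet caller was run. The thinning and ratios were tested on simulated data. Of 17 alternatives, 3 were chosen after seeing the data (fragment thinning, leaving out shared barcodes, and scaling with no draw), as were the summed lists under the last 2 and leaving out shared barcodes in the other libraries. The 0 h barcodes with under 15000 counts and those between the classes were left out of the comparison. Some list genes are counted in the lists but not reported here by name.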

Additional observations from a re-analysis of the deposited data

Results flagged for a closer look

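The promoter share was higher in deep than in mid-depth nuclei at 0 h, but in the 72 h library the same contrast went the other way, by -0.17 percentage points (44.3% in deep and 44.5% in mid-depth nuclei), with intervals of 44.2% to 44.4% and 44.4% to 44.5% that overlap. The difference was 0.57 points at 48 h and 0.04 points at 96 h. The change of direction between the libraries was not tested. The periportal list, lower in deep nuclei at 0 h with a median log2 ratio of -0.20, had a median of 0.0035 at 96 h over 13 genes, on the other side of 0. This difference was not tested either, and the 96 h nuclei were compared at 1415 counts each.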

How the results depend on the processing

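Neither share difference and neither the pericentral nor the periportal median turned its direction under any alternative that gave one. The cholesterol synthesis median also kept its sign, from -0.12 to -0.07, as did the hepatocyte marker median, from -0.10 to -0.01. Of the other lists with medians under the alternatives, 9 crossed 0 and give no direction: midzonal (-0.12 to 0.05), transcription factors (-0.06 to 0.03), DNA replication (-0.06 to 0.14), stress (-0.12 to 0.01), acute phase (-0.05 to 0.07), fatty acid oxidation (-0.11 to 0.10), fatty acid synthesis (-0.12 to 0.04), bile acid (-0.11 to 0.08) and endothelial (-0.08 to 0.04). With counts binarised, the promoter share differed by 0.25 points and the pericentral share by 5.08 points. The pericentral median was then 0.10, the periportal median -0.17, and 5 genes were lower (0.0851% of genes tested). With deep nuclei from 60000 and mid-depth nuclei from 20000 to 30000 counts, the promoter share differed by 0.57 points and the pericentral share by 7.63 points. The periportal median was then -0.23, and 47 genes were higher (0.867%) and 28 lower (0.517%). Another random draw gave a pericentral share difference of 6.87 points, with 8 genes higher (0.147%) and 14 lower (0.257%). Without the 5% of barcodes with the most counts it was 5.06 points with a pericentral median of 0.12, and without the nuclei of low hepatocyte markers the promoter share differed by 0.55 points. Without shared barcodes the promoter share differed by 0.51 points, the pericentral median was 0.13, and 77 genes were higher (1.42%) and 50 lower (0.920%). Thinning to 5000 counts gave medians of 0.13 and -0.15 with 37 genes higher (0.681%) and 26 lower (0.478%). Thinning to 5000 fragments gave a periportal median of -0.16 with 32 higher (0.592%) and 34 lower (0.629%). Promoter windows alone gave medians of 0.21 and -0.16, with 6 genes higher and 6 lower of 2096 tested (0.286% each). Windows without promoter peaks gave 4 higher (0.238%) and 3 lower (0.178%) of 1684 tested. With no filter 165 genes were higher (0.982%) and 244 lower (1.45%) of 16800 tested. With a filter at 10 CPM there were 125 (0.920%) and 115 (0.846%) of 13587. At 1.5-fold there were 1 (0.0184%) and 0, and with nothing drawn 9 were lower (0.165%). The ploidy, ribosomal, Kupffer, stellate and cholangiocyte lists, with under 3 genes of enough counts, got no medians under the alternatives. The cause of these shifts was not tested. No paired analysis was possible because each time point has 1 library.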
